A study of Mus musculus with 36 samples.

Results

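Loss of the RNA recognition motifs (RRM) of Spen was compared with wild type (WT) by how much monoubiquitinated histone H2A (H2AK119ub1) each 250 kb window of mouse chromosome X gained after 24 h of Xist induction. The comparison used 10 H2AK119ub1 libraries of the 36 libraries of the study, chosen by genotype and time: 3 WT pairs and 2 pairs of Spen clones, C3 and D4, each pair an uninduced and an induced library. All were female XX mouse embryonic stem cells of the iXist-ChrX line, a 129S by Cast hybrid whose own Xist promoter was replaced by a TetOn promoter on the 129S allele. WT controls carry that replacement too. The Spen clones carry in addition a deletion of the Spen RRM domain, which the labels describe as leaving a spurious truncated product, so they are not a clean null. Induced cells received doxycycline at 1 µg/mL for 24 h, and uninduced cells received none. Each Spen pair is 1 clone, feeder cells had been removed, and chromatin was native, that is, not crosslinked. The Spen gene lies outside the windows, so its deletion was not checked here.

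Xist is the long noncoding RNA that coats the X chromosome from which it is transcribed and silences it. Spen is a large RNA-binding protein that reaches Xist RNA through its RRM domains and recruits repressors through its C-terminal SPOC domain. H2AK119ub1 is placed by Polycomb repressive complex 1, which Xist brings to the chromosome by a separate route, and the mark normally builds up over the inactivating X, gene-rich parts included. The labels' design text uses the mark as a stand-in for where Xist RNA lies. The RNA itself was not measured.

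For every library the deposited files give a normalised signal per window for reads assigned to genome 1 and to genome 2, from the centromere to the Xist window, and for all reads over the whole chromosome. The gain of a window is the induced minus the uninduced log2 ratio of genome 2 over genome 1, and a gain of 1 is a doubling of that ratio. Which strain each genome stands for is not stated. Of 414 allelic windows, 353 had enough signal on both alleles. Taking the smallest value of a file as 1 fragment, a median window contained between 317 and 1372 fragments per allele in these libraries (median 463), and the counting error at that median was about 4.65%. Before induction genome 2 held 51.1% to 52.2% of the allelic signal in the 10 libraries, and inputs, available for 4 of the 5 pairs, held 50.8% to 51.4% in both states. By the series' design text, each WT replicate and the Spen lines were handled on occasions of their own, so genotype cannot be told apart from the occasion of handling. WT replicate 3 stood apart, with a median gain of 1.23 against 0.81 and 0.82 in the other WT pairs.

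Spen clones gained the mark, but unevenly. Windows with several genes of CpG-rich promoters had small median gains in both clones, while windows without genes had median gains within the WT range. In the window of Araf, a RAF-family kinase gene, with Elk1, an ETS transcription factor gene, Timp1, a metalloproteinase inhibitor gene, and Uxt (chrX:20750001-21000000, mm10), genome 2 held 54.7%, 52.6% and 53.7% of the allelic signal in uninduced WT replicates 1 to 3. After 24 h it held 72.1%, 73.6% and 78.4%. Clone C3 went from 53.5% to 51.9% and clone D4 from 50.6% to 50.5%. Every WT pair gained and neither clone did, with no overlap between the genotypes. In the window of Mageb5, a germline antigen gene of the melanoma antigen family (chrX:91750001-92000000), WT went from 48.0%, 50.2% and 53.1% to 59.2%, 59.1% and 68.1%. Clone C3 went from 46.7% to 69.3% and clone D4 from 50.0% to 73.9%. Here both clones gained more than any WT pair.

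**Figure D1:**
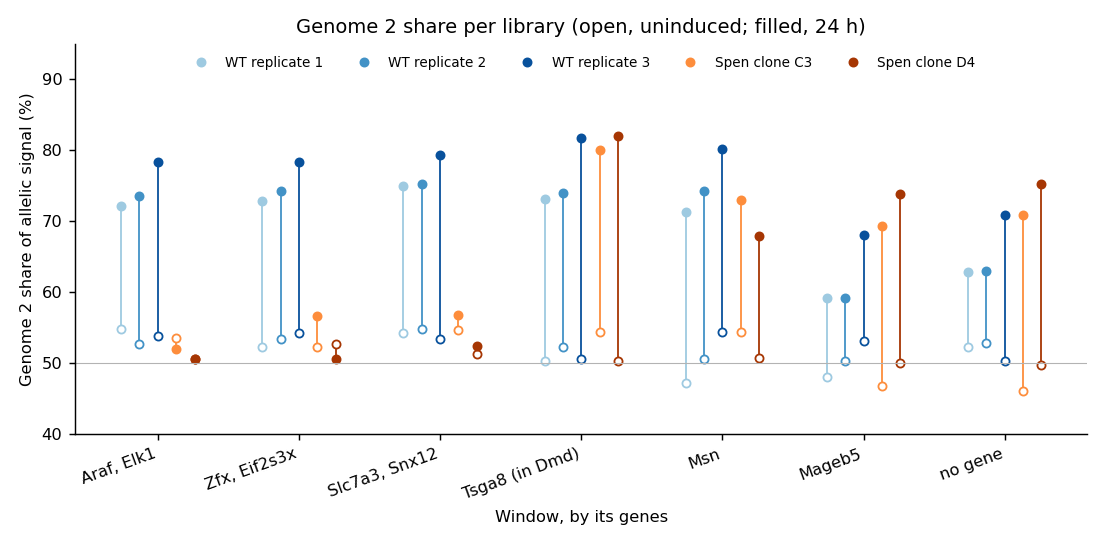
Genome 2 share of the allelic H2AK119ub1 signal in percent (y axis, shown from 40%) in each of the 10 libraries for 7 windows (x axis, named by their genes); an open point is the uninduced and a filled point the 24 h library of a pair, joined by a line. In the Araf window the 3 WT pairs end between 72.1% and 78.4% and the Spen clones at 51.9% and 50.5%, while in the Mageb5 window the clones end highest, at 69.3% and 73.9%.

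The size of the gain over all windows was not shown to differ. The median gain was 0.81, 0.82 and 1.23 in the WT pairs and 0.65 and 0.68 in C3 and D4. Both clones lay below all WT pairs in this value, by 0.29 on average, with p = 0.3 in an exact two-sided permutation test on the difference of means of 3 against 2 pairs. The smallest p this design allows is 0.1. Without WT replicate 3 the difference was -0.15. The spread of gains over windows was wider in both clones than in any WT pair, though not past the threshold. From the 10th to the 90th percentile of windows it was 0.92, 0.92 and 1.03 in WT, 1.21 in C3 and 1.37 in D4 (exact permutation p = 0.1, 0.154 after Benjamini-Hochberg (BH) adjustment over 20 measures per pair). The 10th percentile was 0.30, 0.35 and 0.68 in WT against 0.16 and 0.11 in the clones (exact permutation p = 0.2, BH-adjusted 0.267). At the 90th percentile the clones, at 1.37 and 1.49, lay within the WT range of 1.23 to 1.72.

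Window by window, the ratio rose in 334 of 353 windows in WT (94.6%) and in 250 in the Spen clones (70.8%), and fell in 0 in either, by limma at a BH-adjusted p of 0.05 (334 and 260 at an unadjusted p under 0.05). Both genotypes rose in 246 windows, WT passed the test and the clones did not in 88, and the reverse held in 4. The clones had 2 pairs and WT 3, so the clones' change had the larger SE (0.17 against 0.14 in the Araf window). These counts are therefore not a like-for-like comparison. In 19 windows all WT pairs gained more than 0.5 and both clones less than 0.2. In 2 windows both clones had values below 0 while all WT pairs were above 0. One spans Tfe3, Hdac6, a cytoplasmic deacetylase gene, and Gata1, the erythroid transcription factor gene (chrX:7750001-8000000), where WT gained 0.81, 1.13 and 1.39 and the clones changed by -0.08 and -0.12. The other holds Apln, the gene of the peptide ligand apelin, with Xpnpep2, Sash3 and Zdhhc9 (chrX:48000001-48250000), with 0.86, 0.93 and 1.30 against -0.12 and -0.003. The clones' own change did not pass the test in either window (adjusted p = 0.603 and 0.739, limma). Nor did genome 2 alone fall in C3 or D4, with changes of 0.0008 and 0.03 in the Tfe3 window and 0.03 and 0.11 in the Apln window. In the clones genome 1 changed by 0.08 and 0.15 in the first and by 0.15 and 0.11 in the second. In WT replicates 1 to 3 it changed by -0.06, -0.22 and -0.20 in the first and by 0.07, 0.01 and -0.13 in the second. Part of the ratio difference in the Tfe3 window therefore lay on genome 1.

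The difference of the gains, Spen minus WT, was tested on the ratio as it stands, which keeps the level, and after centring each library on its median window, which leaves the distribution along the chromosome. Centring adds the same 0.33 to the difference of every window, so it moves the zero line and not the order of windows. Uncentred, 83 of 353 windows were lower in Spen clones (23.5%) and 12 were higher (3.40%). Centred, 188 windows differed (53.3%), 69 of them lower (19.5%) and the rest higher (33.7%). All 69 centred lower windows were also lower uncentred, and all 12 uncentred higher windows were also higher when centred. The other 107 centred higher windows were uncalled uncentred. Relative to the median window of the library, they gained more in the clones than in WT. Their gain as it stands was not shown to exceed that of WT. The uncentred counts moved with single libraries. The number higher was 5, 3 and 51 without WT replicates 1, 2 and 3 and 1 without clone D4, and the number lower was 41 without D4. Centred counts stayed within 1.5 times when any pair was left out, at 92 to 112 higher and 53 to 71 lower. Subtracting each library's own input, which leaves out WT replicate 3, gave 20 higher and 16 lower when centred, with a median standard error (SE) of 0.28 in place of 0.14. Division by the SD over windows gave 31 and 34, and centring on the mean window 83 and 85.

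**Figure D2:**
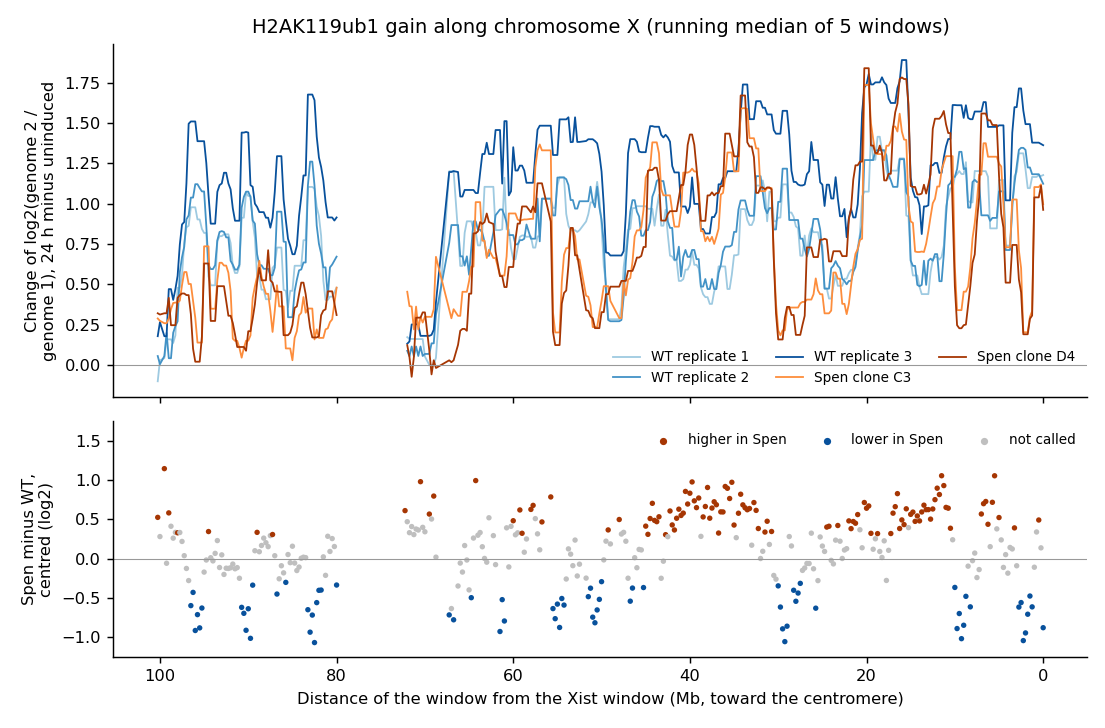
Upper panel, gain of the log2 ratio of genome 2 over genome 1 (running median of 5 windows, y axis) against distance from the Xist window in Mb (x axis, Xist at the right), with a line for each of the 5 pairs. Lower panel, the centred Spen minus WT difference of each 250 kb window in log2 units, with the 69 lower and the other called windows coloured. Stretches where both clones dip toward 0 while the WT lines stay high alternate with stretches where the clones reach or pass WT. The gap holds no window with enough allelic signal.

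Lower windows lay side by side. The 69 centred lower windows formed 21 runs of adjacent windows, the longest of 7 windows, and 9 runs had 4 or more. The run from Chst7 past Jade3, Uba1, the ubiquitin-activating enzyme gene, and Araf to Slc6a14 (chrX:20000001-21750000) had median gains of 1.09, 1.11 and 1.64 in WT and 0.22 and 0.18 in the clones. A run of the same length from Igbp1 over Dlg3, Med12, Nono, Taf1 and Ogt, the O-linked N-acetylglucosamine transferase gene, to Rps4x (chrX:100500001-102250000) had 1.21, 1.33 and 1.52 against 0.30 and 0.29. The third run of 7 windows, over Gpc4, Gpc3, Phf6 and Hprt, the purine salvage enzyme gene (chrX:51750001-53500000), had 1.03, 1.01 and 1.39 against 0.32 and 0.29. Runs in either direction were built from windows called by the test on these same pairs. A gap between WT and the clones within a run follows from that choice and is not a separate result.

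Gains above WT when centred also came in blocks. The longest run had 19 windows with 15 protein-coding genes, many of them of the Mageb germline family (chrX:88250001-93000000). Its median gains were 0.64, 0.65 and 1.08 in WT and 0.99 and 1.23 in the clones, so the clones overlapped WT replicate 3. Runs of 15 windows (chrX:64750001-68500000, with Slitrk2) and 14 windows (chrX:61000001-64500000, with Ldoc1 and Slitrk4) followed. In the latter the gains were 0.64, 0.69 and 1.12 against 1.17 and 1.16, and both clones passed every WT pair. Between 60 and 70 Mb, 35 of 40 windows were higher when centred and 0 lower, against 33.7% higher and 19.5% lower of all windows. Uncentred, 5 of the 40 were higher and 1 lower. That stretch holds 26 genes. Between 20 and 30 Mb, 8 of 14 windows were lower and 0 higher, centred and uncentred alike. The distance from Xist sorted the gains in both genotypes in the same direction: Spearman's rho over the 353 windows was -0.35, -0.33 and -0.39 in WT and -0.44 and -0.50 in the clones, as a description of windows that share libraries and neighbours.

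Windows were also sorted by the CpG-rich promoters they hold. These are promoters of the CpG island kind, found at most broadly expressed genes, and in embryonic stem cells they are where Polycomb complexes bind before any Xist is made. A promoter was called CpG-rich when the 300 bases from 250 before to 50 after the start had an observed over expected CG content of at least 0.6 and at least 50% G and C. That held for 143 of the 490 protein-coding genes with a promoter entry in the windows (29.2%), and these genes start in 89 windows. The classes were chosen after values of these data had been seen. A pair of promoters from lower windows and a pair from windows with a positive difference are shown as examples of such promoters and others, with each CG in capitals, read 5′ to 3′ on the gene's strand (RefSeq, GRCm38.p6). Araf lies at chrX:20848293-20848592 (plus strand) and Hcfc1, a cell-cycle transcription coregulator gene, at chrX:73966308-73966607 (minus strand). Mageb5 lies at chrX:91782927-91783226 (minus strand) and Il1rapl1, a synaptic receptor gene, at chrX:88115899-88116198 (minus strand).
Araf: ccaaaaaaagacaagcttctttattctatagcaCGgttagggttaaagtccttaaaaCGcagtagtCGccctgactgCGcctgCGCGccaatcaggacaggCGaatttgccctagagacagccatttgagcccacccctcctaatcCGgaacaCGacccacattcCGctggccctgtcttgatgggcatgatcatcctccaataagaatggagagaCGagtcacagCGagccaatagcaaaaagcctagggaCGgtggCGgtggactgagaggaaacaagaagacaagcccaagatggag
Hcfc1: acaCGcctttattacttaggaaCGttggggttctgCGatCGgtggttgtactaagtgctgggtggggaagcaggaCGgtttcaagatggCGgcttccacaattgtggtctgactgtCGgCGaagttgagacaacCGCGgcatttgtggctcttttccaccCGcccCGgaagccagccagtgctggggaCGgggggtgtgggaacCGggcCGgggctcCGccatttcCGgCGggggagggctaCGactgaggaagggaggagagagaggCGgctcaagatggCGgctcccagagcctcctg
Mageb5: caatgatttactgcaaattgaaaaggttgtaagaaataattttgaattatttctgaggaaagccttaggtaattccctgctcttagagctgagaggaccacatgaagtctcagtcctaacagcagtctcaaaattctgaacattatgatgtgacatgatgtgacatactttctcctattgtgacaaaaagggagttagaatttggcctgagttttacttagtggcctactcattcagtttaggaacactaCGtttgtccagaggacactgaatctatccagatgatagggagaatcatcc
Il1rapl1: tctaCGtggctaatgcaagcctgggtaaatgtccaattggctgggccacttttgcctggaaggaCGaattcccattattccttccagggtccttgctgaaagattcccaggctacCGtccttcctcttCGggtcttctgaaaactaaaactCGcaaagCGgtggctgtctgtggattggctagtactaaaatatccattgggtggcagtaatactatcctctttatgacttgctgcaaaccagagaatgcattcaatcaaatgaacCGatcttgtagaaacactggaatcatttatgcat
The Araf and Hcfc1 promoters hold 14 and 21 CG, at 0.69 and 0.77 of the expected content, and the Mageb5 and Il1rapl1 promoters 1 and 7, at 0.09 and 0.46. The centred Spen minus WT differences of their windows were -1.07 and -0.89 against 1.06 and 0.39, the last not passing the test (adjusted p = 0.0624, limma).

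In WT the gain was larger in windows with more CpG-rich promoters, and in Spen clones it was smaller. Among 122 windows with neither a gene nor such a promoter, the median gains were 0.63, 0.66 and 1.07 in WT and 0.76 and 0.90 in C3 and D4. In 22 windows with 2 or 3 genes of that kind they were 1.06, 1.12 and 1.53 against 0.28 and 0.19, and in 6 windows with 4 or more, 0.99, 1.10 and 1.42 against 0.21 and 0.09. The genotypes overlapped in the first class and did not in the other classes named. Exact permutation tests gave p = 0.9 for the first and p = 0.1 for both others (BH-adjusted 1 and 0.154 over the 20 measures). Of the 28 windows with 2 or more, 22 were lower when centred (78.6%, against 19.5% of all windows) and 1 was higher. Uncentred, 23 were lower. Of the 122 windows without gene or such promoter, 61 were higher when centred (50%, against 33.7% of all windows) and 1 lower. Uncentred, 6 of the 122 were higher and 2 lower. With a stricter definition, observed over expected at least 0.75 and 55% G and C, 11 of 15 windows with 2 or more were lower.

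**Figure D3:**
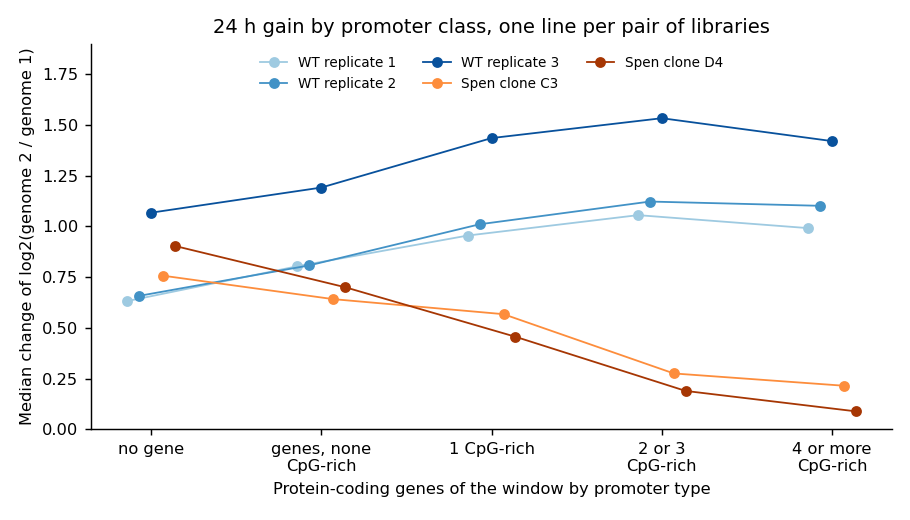
Median gain of the log2 ratio of genome 2 over genome 1 (y axis) in 5 classes of windows by the number of their genes with a CpG-rich promoter (x axis), with a line for each pair of libraries; the classes hold 122, 142, 61, 22 and 6 windows. The WT lines go up from the left to 2 or 3 genes, from 0.63, 0.66 and 1.07 to 1.06, 1.12 and 1.53, and the Spen lines go down, from 0.76 and 0.90 to 0.28 and 0.19.

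As a rank relation over the 353 windows, the gain correlated with the number of CpG-rich promoter genes at a Spearman rho of 0.35, 0.39 and 0.33 in WT and -0.25 and -0.35 in the clones. Over windows without any such promoter, the rho with gene number was 0.11, 0.07 and 0.03 in WT and -0.14 and -0.25 in the clones. The total signal before induction gave the same turn, 0.35, 0.36 and 0.26 against -0.27 and -0.47, so windows that already carried more of the mark gained more in WT and less in the clones. In each of these 3 relations WT pairs and clones had opposite signs, and each gave p = 0.1 in the exact permutation test between 3 and 2 pairs. The separation was not complete. Of the 69 lower windows, 23 hold no CpG-rich promoter by this definition, among them those of Cask and Usp9x, and in 11 of the 23 at least 1 gene had no promoter entry. Fmr1, Otc and Hmgb3 lie in windows with such a promoter that did not differ by the test when centred, at 0.27 ± 0.12 (SE), 0.05 ± 0.14 and 0.09 ± 0.12. The Fmr1 window passed it when clone D4 was left out (0.45, adjusted p = 0.0136, limma).

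**Figure D4:**
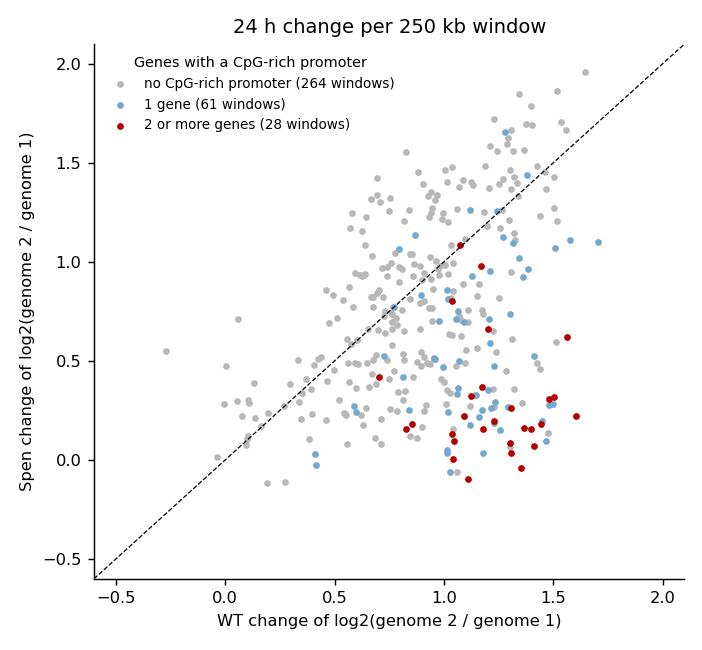
Fitted 24 h gain of each of the 353 windows in Spen clones (y axis) against WT (x axis), both as change of the log2 ratio of genome 2 over genome 1; colour gives the number of genes with a CpG-rich promoter and the dashed line marks equal gain. Most of the 28 windows with 2 or more such genes lie far below the line, and the largest Spen gains belong to windows without one.

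The difference was called on genome 2 and not on genome 1. Analysed alone and centred, genome 2 differed in 196 of 353 windows (55.5%), with 98 lower and 98 higher in the clones, while genome 1 differed in 0 (0.0%) in limma, with 32 windows at an unadjusted p under 0.05. Of the 69 windows lower in the ratio, 68 were also lower on genome 2, and of those higher in the ratio 88 were also higher there. The median change on genome 2 was 0.94, 1.02 and 1.30 in WT and 0.59 and 0.61 in the clones. On genome 1 it was 0.14, 0.18 and 0.04 against -0.02 and -0.01. In windows with 2 or more CpG-rich promoter genes, genome 2 changed by 1.07, 1.16 and 1.53 in WT and by 0.27 and 0.24 in the clones, and genome 1 by 0.04, 0.10 and 0.03 against -0.02 and 0.04. Values of a single allele rest on the deposited scaling, which is not stated, and without centring genome 2 was lower in 132 windows and higher in 4. Genome 1 had 0 calls uncentred as well, with 48 at an unadjusted p under 0.05.

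**Figure D5:**
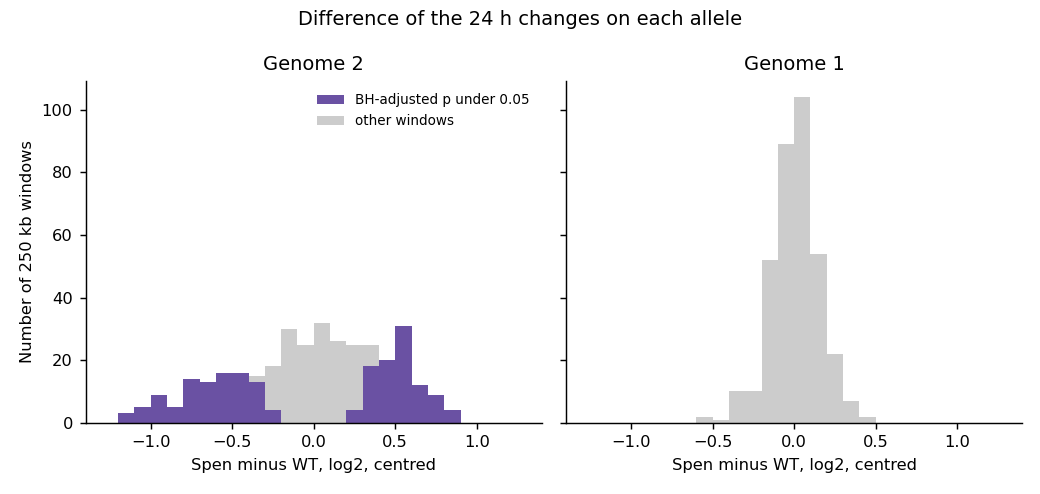
Number of 250 kb windows (y axis) by the centred Spen minus WT difference of the 24 h change in log2 units (x axis), for genome 2 on the left and genome 1 on the right; coloured bars are windows with a BH-adjusted p under 0.05 in limma. Genome 2 has 98 such windows on each side of 0 and genome 1 has 0.

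Of the 16 windows of chromatin and transcription genes, 12 were lower in the clones (75%) and 0 higher when centred, against 19.5% lower and 33.7% higher of all 353 windows. Their median difference was -0.64, where the median of all windows was 0.17. The windows of Bcor, Kdm6a, Hmgb3 and Hdac8 did not pass the test. A gene counts in the window of its midpoint, and lists share windows, since neighbouring genes fall in the same 250 kb. The window of Zfx, a zinc-finger transcription factor gene, differed by -1.02 ± 0.13 (SE). That of Med12, a Mediator subunit gene, and Nono, a paraspeckle protein gene, differed by -0.95 ± 0.14. Kdm6a, a histone H3 lysine 27 demethylase gene known to escape silencing, had -0.05 ± 0.15, and its own gains were small in both genotypes, at 0.46, 0.08 and 0.69 in WT and -0.14 and 0.20 in the clones.

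Genes of RNA processing and translation lay in 18 windows, of which 14 were lower (77.8%, against 19.5% of all windows) and 0 higher (against 33.7%), with a median of -0.68. In the window of Eif2s3x, the gene of the gamma subunit of translation initiation factor 2 and an escape gene, genome 2 rose from 52.2%, 53.4% and 54.2% to 72.9%, 74.3% and 78.3% in WT. Clone C3 went from 52.2% to 56.5% and D4 from 52.7% to 50.5%. All WT pairs gained and D4 did not. The window of Thoc2, an mRNA export factor gene, was noisier: the pairs gained 1.23, 0.93 and 2.18 in WT against -0.32 and 0.70, a difference of -0.93 ± 0.29. It no longer passed the test without WT replicate 3 (-0.70, adjusted p = 0.0727) or without clone C3 (-0.43, 0.187, limma). The Ddx3x window, of an RNA helicase gene that escapes silencing, differed by -0.64 ± 0.14. Over 6 windows of escape genes 4 were lower (66.7%, against 19.5% of all windows) and 0 higher (median -0.61).

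Ubiquitin pathway genes had 11 of 13 windows lower (84.6%) and 0 higher (median -0.71), where 19.5% of all windows were lower and 33.7% higher. The Usp27x window differed by -0.92 ± 0.13 and the Usp9x window by -0.91 ± 0.14; both genes encode deubiquitinases. The Uba1 window, with WT gains of 1.10, 1.11 and 1.70 and clone gains of 0.35 and 0.17, differed by -0.72 ± 0.12. Genes of mitochondria and metabolism had 11 of 17 lower (64.7%) and 0 higher (median -0.58), among them the window of Idh3g, an isocitrate dehydrogenase subunit gene (-0.89 ± 0.12). Otc, a urea cycle gene of the liver, was not called. Kinase and signalling genes had 13 of 19 lower (68.4%) and 0 higher (median -0.62), led by Araf at -1.07 ± 0.12 (adjusted p = 1.75e-05, limma). These 5 lists together cover 53 windows, of which 34 were lower and 0 higher when centred and 38 lower uncentred, and 44 of the 53 hold a CpG-rich promoter. Among all windows with 1 gene of such a promoter, 24 of 61 were lower and 6 higher when centred. With 2 or more such genes, 22 of 28 were lower and 1 higher.

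Lists of more tissue-restricted genes also had many lower windows. Ion channel, transporter and adhesion genes had 12 of 16 windows lower (75%) and 1 higher (6.25%, median -0.62), where 19.5% of all windows were lower and 33.7% higher. In the window of Slc7a3, a cationic amino acid transporter gene, with Snx12, WT rose from 54.2%, 54.7% and 53.4% to 74.9%, 75.3% and 79.3%. The clones went from 54.6% to 56.8% and from 51.3% to 52.3%, a difference of -1.04 ± 0.13. The single higher window, that of Gabra3, a GABA receptor subunit gene (0.35 ± 0.14), lost its call without WT replicate 1 or 2 and without either clone. Immune genes had 7 of 11 lower (63.6%) and 1 higher (median -0.71). Of the 7 lower windows 4 are shared with Araf, Cask, Med12 or Taf1, and the others are those of Il13ra1, Ccdc22 and Was. The higher one, of Vsig4, a complement receptor gene, with Hsf3 (0.57 ± 0.17), passed without WT replicates 1 or 3 or clone C3 but not without WT replicate 2 or D4. Developmental transcription factor genes had 7 of 13 lower (53.8%) and 2 higher (15.4%, median -0.37), with Foxo4, Tfe3, Gata1 and Foxp3 among those in lower windows and Nr0b1 and Hsf3 in higher ones.

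A list of mostly long neural and muscle genes had 9 of 22 windows lower (40.9%, against 19.5% of all windows) and 6 higher (27.3%, against 33.7%), with a median of -0.15. The list also holds short genes, such as Slitrk4 and Nlgn3, and genes of other kinds, such as Eda. Cask, a synaptic scaffold gene, lay in a lower window: WT gained 1.14, 1.33 and 1.96 and the clones 0.18 and 0.09, a difference of -1.01 ± 0.13. Syn1, Nlgn3 and Gpc3 also lay in lower windows, and Aff2, Fgf13, Il1rapl1 (its middle, not its promoter), Slitrk4 and Eda in higher ones. The Slitrk4 window, of a neurite-guiding membrane protein gene, gained 0.44, 0.49 and 1.00 in WT and 1.12 and 1.05 in the clones (0.77 ± 0.11, centred). Uncentred that difference was 0.45 ± 0.22 and did not pass the test. Eda, an ectoderm signalling gene, had 0.39 ± 0.12 and lost its call without clone C3 (0.27, adjusted p = 0.111, limma).

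Dmd, the very long dystrophin gene, spans 10 windows, of which 5 were higher when centred (background 33.7%), 0 lower, and 0 called uncentred. The fitted gain of these windows ran from 1.04 to 1.64 in WT and from 0.85 to 1.96 in the clones. In the window that also holds Tsga8, a testis-specific gene, genome 2 went from 50.2%, 52.2% and 50.5% to 73.2%, 73.9% and 81.8% in WT, from 54.3% to 80.0% in C3 and from 50.2% to 82.1% in D4. C3 ended between WT replicates 2 and 3 and D4 just above replicate 3. Both calls of Dmd windows nearest 0.32 (from 83750001 and from 84500001) were lost when single pairs were left out. Msn, the moesin gene, is the case of a strong gain in both genotypes, at 1.47, 1.49 and 1.77 in WT and 1.18 and 1.04 in the clones, with a centred difference of -0.14 ± 0.18. In the window of Gk, the glycerol kinase gene, the clones parted: C3 gained 1.39 and D4 0.81, against 1.33, 1.62 and 2.16 in WT. Uncentred it was lower in the clones (-0.60 ± 0.23, adjusted p = 0.0350, limma). Its centred difference of -0.28 ± 0.15 did not pass and was 0.02 without D4.

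Genes picked by name prefixes of germline multicopy families covered 68 windows. A prefix alone does not show that a gene is multicopy. When centred, 19 of the 68 windows were higher (27.9%) and 8 lower (11.8%), with a median of 0.23. These shares were not above the 33.7% and 19.5% of all windows. Uncentred, 5 were higher and 11 lower, and 52 had risen in WT and 42 in the clones. Reads of near-identical copies may be split between family members, so values of single members are uncertain. The Mageb1 window gained 0.43, 0.40 and 0.88 in WT and 1.02 and 1.33 in the clones, a centred difference of 0.93 ± 0.12, and both clones lay above all WT pairs. The window of Btbd35f10 and Btbd35f16, of a BTB-domain family near the centromere, had the largest difference of all, 1.15 ± 0.23. It came with changes of -0.52, -0.17 and -0.12 in WT and 0.29 and 0.81 in the clones, and turned to -0.07 when the own input was subtracted and WT replicate 3 left out. The Btbd35f30 window (0.98 ± 0.23) lost its call without D4 (0.68, adjusted p = 0.0625, limma). The 8 lower windows of this group were those of Tex13d, Tex11, Usp26, Maged1, Akap4, Cypt1, Xlr3c with Xlr5c, and Spaca5 with Ssxa1. The Tex13d call was lost without WT replicate 1 (-0.67, adjusted p = 0.0723) and without WT replicate 2 (-0.78, 0.0504, limma).

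At the X-inactivation centre the last allelic window holds Cdx4, Chic1, Tsx and the Xist gene. Its genome 2 share went from 51.8%, 49.5% and 50.4% to 72.5%, 74.9% and 74.9% in WT. In the clones it went from 49.2% to 54.0% and from 48.4% to 53.0%. The clones stayed well below WT, with a centred difference of -0.88 ± 0.16 (adjusted p = 0.000373, limma). Genome 2 alone differed by -0.53 ± 0.18 and genome 1 by 0.49 ± 0.15, the latter not passing the test (adjusted p = 0.295, limma). Genome 1 changed by -0.35, -0.27 and -0.21 in WT and by 0.02 and 0.10 in the clones, so part of the ratio difference lay on that allele. The window ends at 103500000 in WT replicates 1 and 2 and at 103483233 in the other libraries, so unequal stretches are compared. The neighbouring window of Nap1l2 (chrX:103000001-103250000) had 0.14 ± 0.15, with gains of 1.02, 1.12 and 1.36 against 1.00 and 0.96.

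Beyond Xist only the signal of all reads is given, in which both alleles are added. Over the 267 windows there, 179 differed when centred (67.0%), with 72 lower in the clones (27.0%) and 107 higher (40.1%). Of the 72 lower windows 43 hold a CpG-rich promoter, though 66 of the 267 do, and of the 107 higher ones 104 hold none. The lowest were those of Rbbp7, a histone chaperone gene (chrX:162750001-163000000, -0.96 ± 0.09), and Huwe1, a ubiquitin ligase gene (chrX:151750001-152000000, -0.95 ± 0.08). In the Huwe1 window the total signal went from 192, 189 and 186 to 401, 430 and 524 in WT, and from 184 to 195 in C3 and 185 to 198 in D4. WT more than doubled in every pair and the clones moved by a few units. The window of Hsd17b10, a mitochondrial dehydrogenase gene, and Smc1a, a cohesin gene, had -0.90 ± 0.10, that of Gnl3l and Fgd1 -0.88 ± 0.10 and that of Shroom2 -0.85 ± 0.07. At the other end, the window of Gm34521 (chrX:109500001-109750000) had 0.58 ± 0.08, with totals from 173, 172 and 167 to 238, 253 and 306 in WT and from 154 to 298 and 153 to 322 in the clones. Over the 353 windows where both exist, the differences in ratio and in total had a rho of 0.89, as a description. Over the whole chromosome 180 of 669 windows were higher (26.9%) and 189 lower (28.3%), and 102 were higher without clone D4. Uncentred, 6 were higher and 232 lower, values that rest on the unstated scaling.

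The clones resembled each other more than either resembled WT. Pearson's r of the gain over the 353 windows was 0.81 between C3 and D4, 0.83 to 0.84 among WT pairs, and 0.17 to 0.43 between a clone and a WT pair, as a description of windows that are not independent. They differed by more than 0.5 in 40 windows. In 26 of these D4 gained more, and 25 of the 26 hold no CpG-rich promoter. C3 gained more in the other 14, of which 12 hold none, as do 74.8% of all windows. D4 also had the wider spread and the lower median in windows with 4 or more CpG-rich promoter genes, 0.09 against 0.21 in C3. With 1 pair a clone, these differences have no test.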

How the data were processed

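Per the submitters' processing notes, Bowtie2 2.2.6, Picard and bedtools were used with mm10, their roles not being given in the sources used here. The authors deposited a normalised signal (coverage summed per 250 kb window) for all reads and for each allele; per the file headers it is called normalised, and the scaling is not stated in the sources used here. Drosophila chromatin was added as a spike-in to part of the libraries, per the labels, and was not used.

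From these values the log2 ratio of genome 2 over genome 1 was formed within each library after adding 1% of the median window to both alleles, so that the scaling cancels. Windows averaging under 10% of the median window on either allele were left out. Gains and their differences were fitted with limma 3.58.1 in R 4.3.3 over 14 libraries, of which 4 of a SPOC mutant served only to estimate the spread, two-sided, with BH adjustment at 0.05. Errors of windows are SE from that fit. Values per pair were compared by exact permutation tests (scipy 1.17.1). In simulated data with 120 of 353 windows changed, the centred test recovered 100% of differences of 1.0 and 73.3% of 0.5, with 7 false calls. The choice of centring was not tested there. In the measured libraries, centring on the median window gave 119 windows higher and 69 lower, and centring on the mean window 83 and 85. Separate cultures are not stated, so p-values measure the spread between these libraries and clones.

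Replicate numbers pair libraries by the series' design text, which gives each WT number 1 handling occasion, and by clone, each being a line of its own. The correlation of the 2 libraries of a pair, as deviations from the mean of their group across windows, was -0.01, -0.10 and 0.03 for WT and -0.0008 for the clones. The main fit has no block.

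Genes were taken from RefSeq (GRCm38.p6), 580 of 966 protein-coding genes of X lying in the windows, with promoters placed by their start. Named windows are the 10 most different in each direction among called windows whose pairs do not overlap, windows of preset genes (among them Xist, Kdm6a, Ddx3x, Eif2s3x, Dmd, Araf, Uba1, Msn, Gk and Eda) and the extremes of each of 12 gene lists, from which the text draws a selection. Members and lists were chosen with earlier results of these data known. Alternatives tried were other pseudocounts, filters, scalings, weights, a replicate block, input subtraction and leaving out each pair.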

Additional observations from a re-analysis of the deposited data

Results flagged for a closer look

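The gain differed between Spen clones and WT in the tests of the difference itself in 12 windows higher and 83 lower uncentred, and in 188 when centred, 69 of them lower. On genome 2 alone, centred, it differed in 98 windows higher and 98 lower, and in the total signal over the whole chromosome in 180 higher and 189 lower. In the Tfe3 to Gata1 window (from 7750001) all WT pairs rose and both clones had values below 0, a level difference of -1.21 ± 0.22 (SE). In the Apln window (from 48000001) the same held, with a level difference of -1.09 ± 0.22 (SE). Both passed limma at a BH-adjusted p of 0.05, though the clones' own values below 0 did not. Those values below 0 are ratios: genome 2 alone changed by 0.0008 and 0.03 in the first window and 0.03 and 0.11 in the second. Genome 1 rose in both clones there, and in the first window it fell in all WT pairs. A search for single outlying samples by Dixon's ratio needs at least 4 samples a group and was not run on these groups of 2 and 3 pairs. WT replicate 3 had the highest median gain, and without it the uncentred higher count was 51.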

How the results depend on the processing

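Uncentred, the number of windows higher in Spen clones was 7 in a fit of only the 10 WT and Spen libraries, 7 with a pseudocount of 10%, 4 with no filter, 48 with quality weights per library and 1 to 51 when single pairs were left out, and the number lower was 37 after subtracting the own input (WT replicate 3 left out) and 41 to 89 when single pairs were left out, against 12 and 83. Centred, the own-input setting gave 20 higher and 16 lower, and scaling by the SD gave 31 and 34, against 69 lower of 188 differing. Leaving out single pairs gave 102 to 169 higher windows of total signal, against 180. Without centring genome 2 had 4 higher and total signal 6 higher. Of the windows with 2 or more CpG-rich promoter genes, 8 were lower with the own-input setting against 22 of 28, and 11 of the 15 that meet the stricter promoter definition. All other counts listed in these comparisons stayed within 1.5 times. The replicate block gave 12 and 84 uncentred and 110 and 65 centred windows higher and lower; it moved no count by more than 1.5 times. Of 34 named windows called when centred, 26 kept their call whichever pair was left out. Under the own-input setting the difference changed sign in the windows from 3750001 (-0.0679), 18000001 (0.0649), 39000001 (-1.23), 84500001 (-0.179), 85000001 (-0.362) and 103000001 (-0.0532). Scaling by the SD turned those from 82750001 (-0.253), 84000001 (-0.223) and 84750001 (-0.353). Centring on the mean window turned those from 10250001 (-0.0628), 71500001 (-0.0170), 84750001 (-0.0195), 85000001 (-0.0959) and 95500001 (-0.0398), and a pseudocount of 10% that from 85000001 (-0.00138). With single pairs left out, the value ran from -0.170 to 0.266 in the window from 10250001, -0.214 to 0.111 in 18000001, -0.0526 to 0.240 in 71500001, -0.0566 to 0.296 in 84000001, -0.0547 to 0.0842 in 85000001 and -0.575 to 0.0194 in 85500001. Of these, those from 3750001, 39000001 and 84500001 had been called; the cause was not tested. Window depth, unknown beyond an estimate from the smallest value, limits single windows more than runs, and inputs are shallower than the H2AK119ub1 libraries.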

Other observations

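Gene cover, the share of a window lying within protein-coding genes, related to the gain at a rho of 0.59, 0.61 and 0.54 in WT over the 353 windows, 0.03 in clone C3 and -0.13 in clone D4. Among windows without a CpG-rich start, the 100 that overlap no protein-coding gene had median gains of 0.60, 0.62 and 1.00 in WT and 0.68 and 0.84 in the clones. The 155 that overlap only genes without a CpG-rich promoter had 0.82, 0.84 and 1.20 against 0.74 and 0.85. The 9 that overlap the body of a gene with one had 1.14, 1.15 and 1.35 against 0.59 and 0.34. When centred, 4 of these 9 were lower (44.4%) and 1 higher (11.1%), against 19.5% and 33.7% of all windows. Of the 155 windows 12.3% were lower and 40% higher, and of the 100 windows 0% were lower and 49% higher. Between induced and uninduced inputs the ratio moved by a median of 0.01 and -0.02 in WT and -0.02 and -0.01 in the clones, and the Spen minus WT input difference had a median of 0.03 in the 69 lower windows and -0.03 in the higher ones.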
